A study of Mus musculus with 13 samples.

Results

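The genes of the cytosolic ribosomal proteins were followed over 48 h in the skin of mice. Members were chosen by symbol in the platform annotation: Rpl or Rps followed by a digit, Rplp followed by a digit, or Rpsa, without symbols of pseudogenes and of S6 kinases, and only from probe sets assigned to 1 gene. The rule found 63 of the 19938 genes on the array, 38 with a symbol of the large subunit and 25 with a symbol of the small one. Each gene is given by its brightest probe set. All 63 members passed a filter that left out the dimmest 25% of genes, so they are part of the 14953 genes tested. A further 20 symbols of the rule, among them Rpl3, Rpl11, Rpl32, Rps16, Rps24 and Rps26, occurred only in probe sets shared by several genes and were left out.

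The tissue was whole back skin of male C57Bl6 mice at postnatal day 46, labelled telogen, in which hair follicles rest. Collections were 4 h apart in a cycle of 12 h light and 12 h dark, and zeitgeber time (ZT) counts hours from lights on at ZT0, with lights off at ZT12. RNA of 3 mice was pooled for each of the 13 arrays, so the spread is between pools and not between animals. The dark arrays were 2 each of ZT14, ZT18 and ZT22, and the light arrays were 3 of ZT2 (hours 2, 26 and 50) and 2 each of ZT6 and ZT10. The labels give no genotype beyond the strain and no treatment.

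Ribosomal proteins coat the ribosomal RNAs of the large and the small subunit, and most are needed in equal number, one copy per ribosome. Their mRNAs are among the most abundant of any cell, and in mammals they start with a C followed by a run of pyrimidines, the terminal oligopyrimidine (TOP) motif, through which the kinase mTOR and the RNA-binding protein Larp1 control their translation. In mouse liver the translation of these mRNAs is known to follow the time of day and of feeding, more than their level does. In mouse skin, mutations in single ribosomal proteins are known for pigment changes: alleles of Rps19 and Rps20 darken the skin, and the Belly spot and tail allele of Rpl24 leaves white spots.

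The starts of 5 of these mRNAs are shown because they carry the feature that the members are known to share and that the rule did not use. They are taken from the RefSeq promoter table of build GRCm38.p6 and span 10 bases before the annotated start and 20 from it, on the strand of the gene. Capitals mark the pyrimidine run from the annotated start on. In each gene shown the base just before the start is a pyrimidine too. The genes are Rpl14 (chr9:120571507-120571536, plus strand), Rps18 (chr17:33955646-33955675, minus strand), Rps6 (chr4:86857348-86857377, minus strand), Rps10 (chr17:27635225-27635254, minus strand) and Rplp2 (chr7:141447641-141447670, plus strand).
Rpl14: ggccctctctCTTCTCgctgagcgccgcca
Rps18: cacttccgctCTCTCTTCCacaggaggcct
Rps6: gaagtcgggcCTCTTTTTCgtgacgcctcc
Rps10: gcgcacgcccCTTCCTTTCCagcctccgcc
Rplp2: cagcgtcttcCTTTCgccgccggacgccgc

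A promoter was matched for 51 of the 63 members. A C with at least 4 pyrimidines after it stood exactly at the annotated start of 10 of these 51 (19.6%), against 2.49% of all 27025 promoters of the table, and starts annotated a base or more away were not counted. The ETS motif CCGGAAG, in either orientation, occurred between 250 bases before and 50 after the start of 18 of the 51 members (35.3%), against 9.12% of all promoters. The SP1 motif GGGCGG, in either orientation, occurred in 29 (56.9%), against 35.9% of all promoters. The clock factors' E-box CACGTG, which reads the same on both strands, occurred in 4 members (7.84%), against 7.24% of all promoters.

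The members were bright. Their mean intensities over the 13 arrays ranged between 273.9 and 13080 with a median of 4184, and 41 of the 63 lay in the brightest 10% of all genes tested. The brightest were Rps6, the small-subunit protein phosphorylated by S6 kinases, with 13080, Rpl10, which joins the large subunit late in its assembly, with 12744, and Rpl28, of the large subunit, with 12382. The dimmest were Rps23rg1 with 273.9, Rpl39l with 306 and Rpl12 with 322. Rps23rg1 is a retrogene copy of Rps23 and Rps19bp1 is a binding partner of Rps19, so both match the rule by symbol but are not ribosomal proteins. Intensities depend on the probes, so these levels do not order the genes by mRNA abundance. Ribosomal proteins have many processed pseudogenes with nearly the same sequence, and how far the probes also read those was not tested.

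The array titled ZT2 (hour 2) stood apart from the other 12. Its median correlation with the others across genes was 0.961, against 0.974 among the others, and 26.8% of all genes tested had their lowest value there. Column medians lay between 354 and 393 over the 13 arrays, and the hour-2 array had the lowest. The intensity below which 5% of probe sets lay was also lowest there, 33.7, against up to 46.9 in the others. Collagen and other fibroblast markers (5 of 5 measured) summed to 46880 in the hour-2 array, against 59320 to 68050 in the other 12. Of the 5, 4 were lowest there, and Dcn lay within the range of the others. Macrophage markers (3 of 3) summed to 4205 there, against 5528 to 7052, and keratinocyte markers (5 of 6 measured) to 60690, against 57620 to 63930 in the others. Markers of exocrine pancreas (4 of 5 measured), not expected in skin, summed to 4649 in the hour-2 array, against 976 to 1402 in the others. Ctrb1 (2958 at hour 2, against 180 to 323) and Cpa1 (1046, against 116 to 237) carried that sum, while Cela1 (273, against 235 to 385) and Prss2 (372, against 340 to 494) lay within the range of the others. Liver markers (4 of 5 measured) were high on most arrays, with a sum of 39590 in the hour-2 array and 7244 to 45080 in the others. The ZT22 array of hour 46 held the highest sum of hair shaft keratins, 21690, against 967 in the hour-2 array. In such bulk samples, fewer cells of a type and less RNA per cell cannot be told apart.

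Over the day the ribosomal protein genes were nearly flat. Levels below are log2(intensity + 16), on which folds of dim genes are understated. The mean level of the 63 members was 11.85 ± 0.14 at ZT2 (SD, n = 3), 11.75 ± 0.015 at ZT6, 11.80 ± 0.010 at ZT10, 11.75 ± 0.012 at ZT14, 11.71 ± 0.020 at ZT18 and 11.82 ± 0.10 at ZT22 (SD, n = 2 each). Both times with a wide spread contain 1 high array, hour 2 at ZT2 and hour 22 at ZT22. Without the hour-2 array the mean at ZT2 was 11.77 ± 0.039 (SD, n = 2). The lowest mean, at ZT18, rests on hours 18 and 42.

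No member passed the 24 h test, an F test on a cosine and a sine in limma over all 13 arrays with Benjamini-Hochberg adjustment over all genes tested. The count was 0 of 63 members, against 318 of all 14953 genes (2.13%). Of the members 2 of 63 (3.17%) had an unadjusted p under 0.05, against 18.6% of all genes. The median fitted difference between peak and trough was 0.13 in log2 over the members and 0.19 over all genes. The mean level of the members had a fitted difference between peak and trough of 0.096, which came to 0.038 without the hour-2 array. Of the fitted peaks, 39 fell between ZT0 and ZT6, 11 between ZT6 and ZT12, 2 between ZT12 and ZT18 and 11 after ZT18, with the hour-2 array in the fit.

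**Figure D1:**
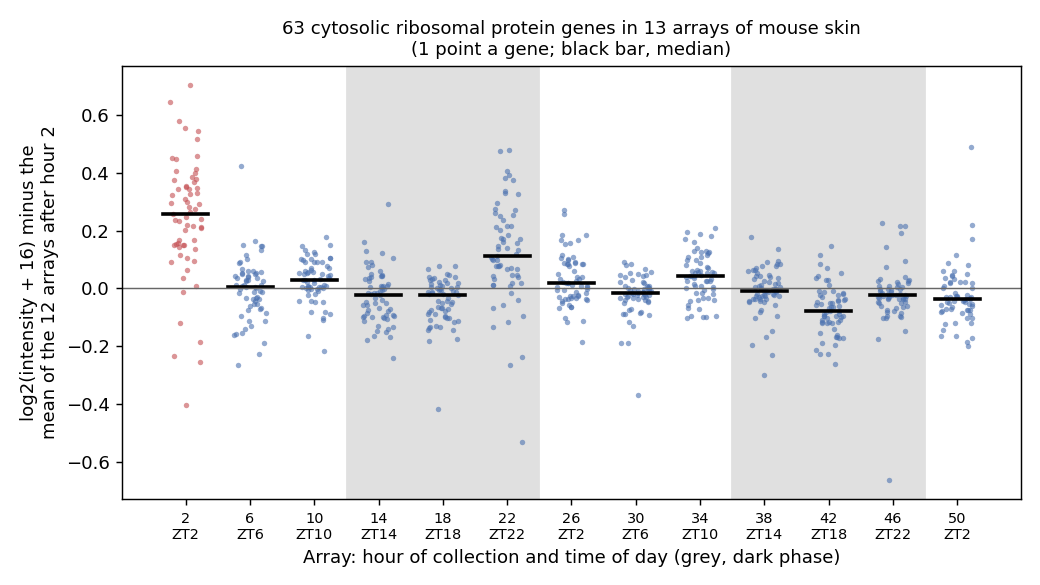
Each point is 1 of the 63 ribosomal protein genes in 1 array, as log2(intensity + 16) minus the gene's mean over the 12 arrays after hour 2; the x axis gives the hour of collection with its time of day, grey marks the dark phase and the black bar is the median. The hour-2 points have a median of 0.26 and 57 of 63 lie above 0, while the other arrays stay near 0 apart from hour 22.

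The smallest p belonged to Rpl12, a protein at the base of the stalk that binds translation factors. Its intensity over hours 2 to 50 was 354, 267, 270, 284, 314, 446, 353, 326, 307, 266, 328, 363 and 301. It was highest at hour 22 and low at hours 6 and 38, with a fitted fold between peak and trough of 1.35 (0.43 ± 0.11 in log2, SE), a peak at ZT22.6 and a limma adjusted p of 0.108. Rpl12 was also among the dimmest members.

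Rps27l, the paralogue of Rps27 that p53 is known to induce, had 2891, 2799 and 2766 in the ZT2 arrays of hours 2, 26 and 50. Its other 10 arrays lay between 2277 and 2629, below all 3 ZT2 values. Rps27l had the next smallest p after Rpl12 in the 24 h test, which reads the same values, so this separation adds no support. The share of all genes with such a separation was not counted. The fitted difference between peak and trough was 0.26 ± 0.067 in log2 (SE) with a peak at ZT2.03 and a limma adjusted p of 0.127. The next 3 members by p were Rpl26 (adjusted p = 0.295), Rpl3l (0.302) and Rps19 (0.320) in the same limma test, with fitted folds of 1.17, 1.42 and 1.24.

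Rpl3l, the paralogue of Rpl3 used by striated muscle, varied most of all members. Its intensity over hours 2 to 50 was 1039, 1246, 822, 985, 687, 899, 1118, 914, 954, 933, 897, 577 and 1304. The highest 3 values came from hours 50, 6 and 26 and the lowest from hour 46. The summed intensity of 5 skeletal muscle markers was 52940, 53790 and 50190 in those 3 arrays and 37200, its lowest, at hour 46. The orders were not the same throughout: hour 14 had the third highest marker sum, 51260, with an Rpl3l intensity of 985. The part of muscle content in the values of Rpl3l was not tested.

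The dark arrays were also compared with the light ones. The mean level of the members was 11.76 ± 0.068 in the 6 dark arrays and 11.81 ± 0.093 in the 7 light arrays (SD), or 11.77 ± 0.029 in light without hour 2. In limma's moderated test 0 of 63 members passed, against 3 of all 14953 genes (0.0201%). So few genes passed that the 0 says nothing about the members. Unadjusted p under 0.05 was reached by 2 of 63 members and by 8.28% of all genes. The median difference, dark minus light, was -0.049 over the members and -0.023 over all genes, and 53 of 63 members lay below 0, against 59.8% of all genes. Without the hour-2 array the members' median was -0.018, and it was -0.010 to -0.020 under the 3 other normalizations between arrays.

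The 3 members with the smallest p for dark minus light were Rpl3l, Rpl14 and Rpl38. Rpl3l had a difference of -0.35 ± 0.13 (SE) with an adjusted p of 0.529 in limma. Rpl14, a protein of the large subunit, had -0.26 ± 0.11 (adjusted p = 0.559, limma), and its light mean includes the hour-2 array, its highest. Rpl38, known from the Tail short mouse and from the translation of homeobox mRNAs, had -0.13 ± 0.063 (adjusted p = 0.628, limma).

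Arrays taken 24 h apart were compared as day 2 minus day 1 with time of day as a block, over the 12 arrays of hours 2 to 46. In limma 0 of 63 members passed and 0 of all 14953 genes (0%), so this count says nothing about the members. Unadjusted p under 0.05 was reached by 5 of 63 members (7.94%) and 6.53% of all genes. The median difference was -0.064 over the members, with 52 of 63 (82.5%) below 0, and 0.0091 over all genes, with 47.0% below 0. Hour 2 is 1 of the 6 arrays of day 1, and without it the members' median was -0.035. The smallest p belonged to Rpl8, with -0.20 ± 0.079, Rpl23, with -0.19 ± 0.076, and Rps14, with -0.21 ± 0.086 (SE; adjusted p = 0.603 for each, limma).

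**Figure D2:**
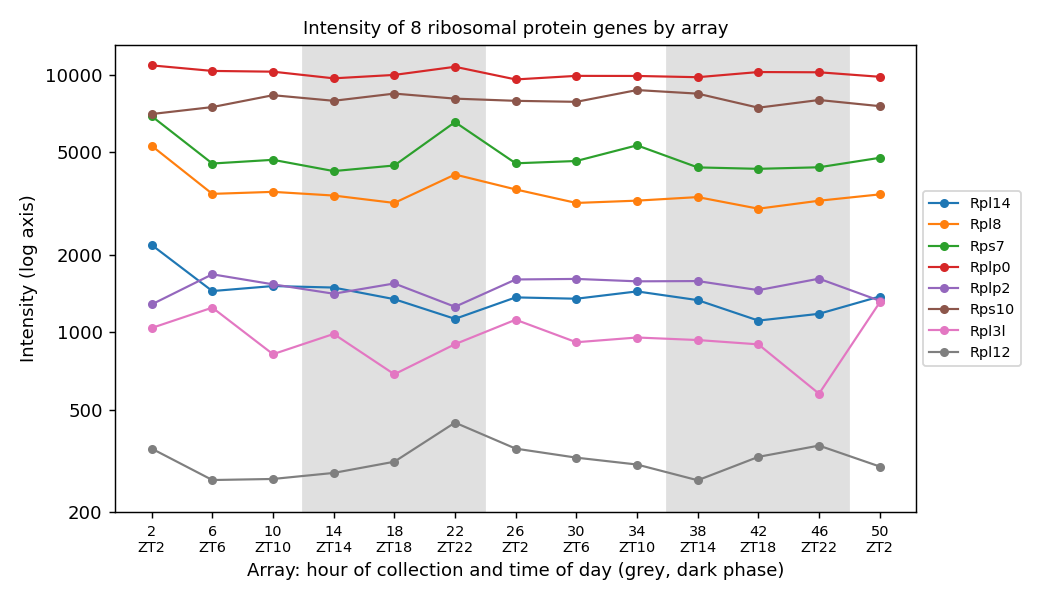
Intensity on a log axis of 8 ribosomal protein genes in each array by hour of collection, with the dark phase in grey and 1 line per gene. Rpl14, Rpl8 and Rps7 are highest at hour 2, Rplp2 and Rps10 are low there, Rpl12 peaks at hour 22 and Rpl3l is lowest at hour 46.

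The comparison of the hour-2 array with the other 12 has 1 array on one side, and that array was singled out with earlier results of these data known, so its values are a description with no test. The members' mean level was 12.01 in the hour-2 array, against 11.69 to 11.89 and a mean of 11.77 ± 0.050 in the other 12 (SD). The other ZT2 arrays, hours 26 and 50, had 11.80 and 11.74. The median difference, hour 2 minus the mean of the other 12, was 0.26 over the members and -0.029 over all genes. Of the members 45 of 63 (71.4%) had their highest value in the hour-2 array, against 14.1% of all genes, and 54 of 63 exceeded both other ZT2 arrays, against 38.5% of all genes. A gene is called high here when its value exceeded all other 12 arrays and their mean by at least 0.32 in log2, which held for 23 of 63 members (36.5%) and 7.13% of all genes. One member, Rps10, had its lowest value in that array, against the 26.8% of all genes given above.

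The hour-22 array, of ZT22, came next. It held the highest value of 9 members (14.3%), but 20.8% of all genes also had their highest value there. Its median difference from the other 12 arrays was 0.11 over the members. The lowest values were spread, and the ZT18 array of hour 42 held most of them, for 19 members (30.2%), against 13.3% of all genes.

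**Figure D3:**
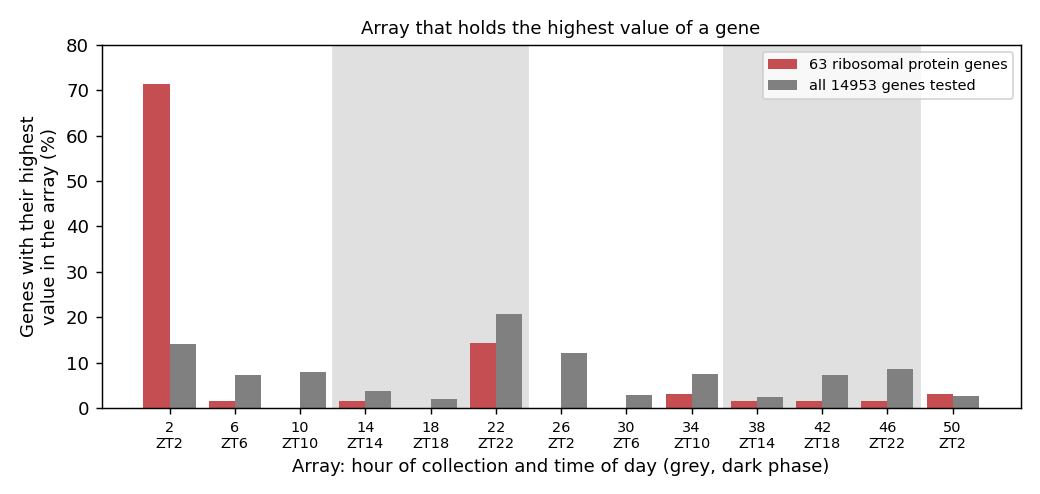
Bars give, for each array, the percentage of genes with their highest value in it, for the 63 ribosomal protein genes in red and for all 14953 genes tested in grey; the x axis gives the hour of collection with its time of day and the dark phase is shaded. The hour-2 array holds 71.4% of the members, against 14.1% of all genes.

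The members farthest above the others in the hour-2 array came from both subunits. Rpl14 had 2181 at hour 2, against 1110, 1357 and 1511 as lowest, median and highest of the other 12 arrays, a difference of 0.70 in log2 or 1.63-fold. Rpl8, which lies near the peptidyl transferase centre, had 5290, against 3016, 3368 and 4093, a difference of 0.65 or 1.56-fold. For both, the gap to the nearest light array was wider than the range of the other 6 light arrays.

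The next 3 were small-subunit members. Rps3a1 had 1708 at hour 2, against 969, 1147 and 1435 in the other 12, a difference of 0.58. Rps7 had 6894, against 4220, 4520 and 6537, a difference of 0.56, and the highest of its others was hour 22, while the next, hour 34, had 5312. Rps14, whose human counterpart is lost in the 5q- syndrome, had 3744, against 2356, 2506 and 2885, a difference of 0.55. Rpl14 differed from these in the hour-22 array, where it had 1127, near its minimum, while Rps7 and Rpl8 had their second highest values there.

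A few members did not share this direction. Rps23rg1, the retrogene, had 206 at hour 2, against 187, 284 and 325 in the other 12, a difference of -0.40. Rpl10l, the testis retrogene copy of X-linked Rpl10, had 1741, against 1608, 2129 and 2550, a difference of -0.25. Rps10, whose ubiquitylation marks stalled ribosomes, had 7025, against 7436, 7936 and 8705, a difference of -0.19, the only member below all other arrays. The sixth member below 0 was Rpl19, with a difference of -0.014 in its brightest probe set. Of its 7 probe sets 6 lay above 0, up to 0.15.

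By brightest probe set, the 3 proteins of the P stalk, which recruits elongation factors to the large subunit, went apart. Rplp0, the base of the stalk, had 10852 at hour 2, against 9570, 9923 and 10717 in the other 12, its highest value by a small margin (0.12). Rplp1 had 9849, against 9738, 10591 and 11850 (-0.12), and Rplp2 had 1282, against 1255, 1561 and 1678 (-0.23). Both lay within the range of the other arrays, close to its lower end. Both had their lowest value at hour 22, the array where Rplp0 had its second highest. The other, dimmer probe set of Rplp1 had a difference of 0.024, above the mean of the other arrays.

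**Figure D4:**
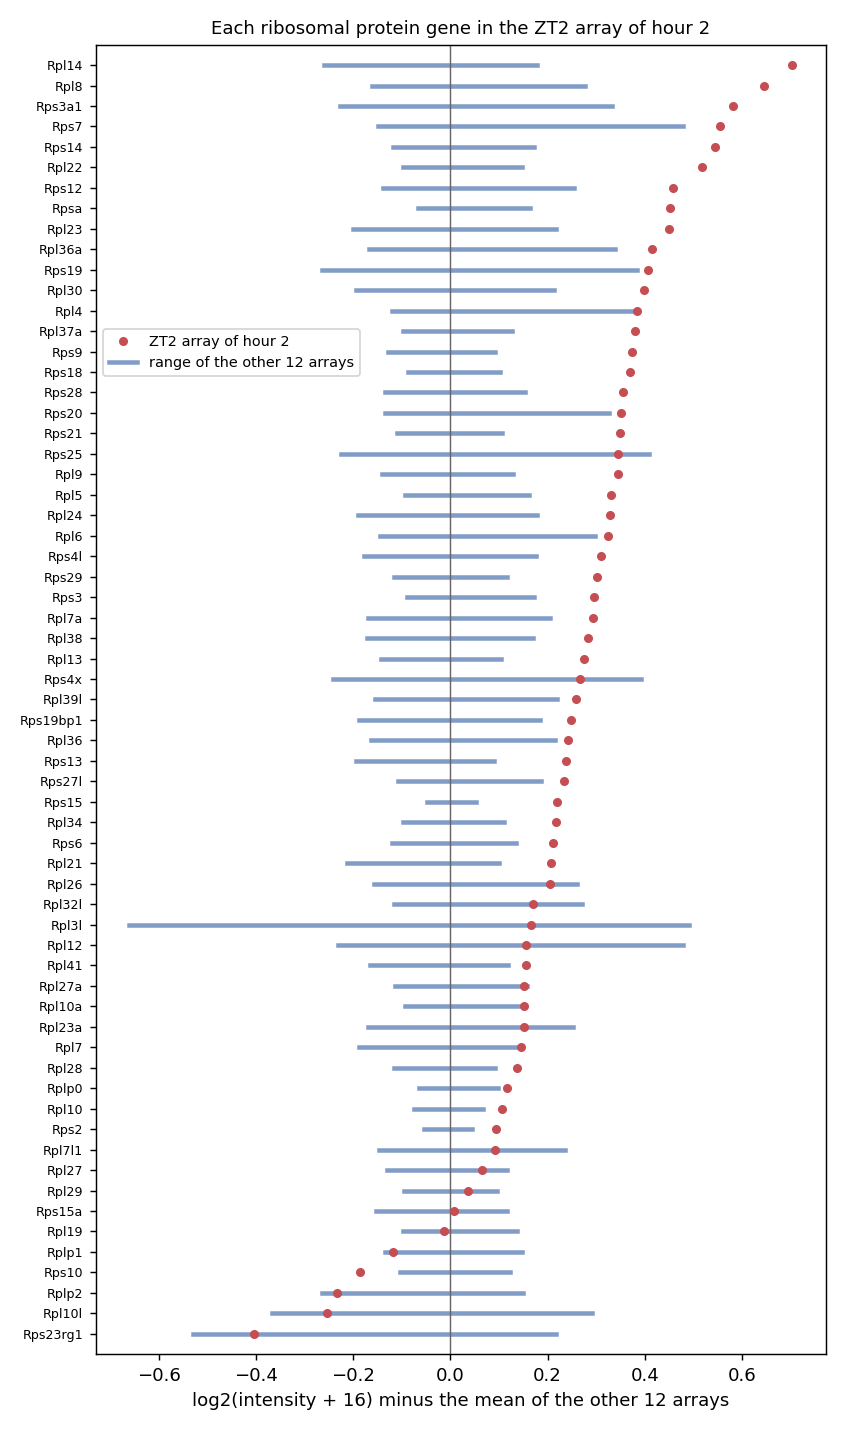
Each row is 1 ribosomal protein gene, ordered by its difference in the hour-2 array; the red point is that array and the blue bar the range of the other 12, as log2(intensity + 16) minus the mean of those 12. The red points run from 0.70 for Rpl14 to -0.40 for Rps23rg1, and 45 of 63 lie to the right of the blue bar.

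Among the proteins with known roles outside or at the edge of the ribosome, Rpsa, also known as the laminin receptor precursor, had 4659 at hour 2, against 3248, 3349 and 3814 in the other 12 (0.45). Rpl5, which carries 5S RNA and can bind Mdm2, had 5971, against 4443, 4705 and 5303 (0.33). Rps6 had 14953, against 11881, 12866 and 14172 (0.21). All 3 were highest at hour 2, with the widest gap for Rpsa and the narrowest for Rps6.

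The members known for skin pigment changes in mice, Rps19, Rps20 and Rpl24, were also highest at hour 2. Rps19 had 1568 there, against 980, 1158 and 1544 in the other 12 (0.41), and hour 22 was its second highest. Rps20 had 8928, against 6369, 6852 and 8775 (0.35), again with hour 22 just below. Rpl24 had 2284, against 1590, 1872 and 2059 (0.33). Rpl38, the gene of the Tail short mouse, had 5217, against 3805, 4234 and 4828 (0.28).

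The members in use as reference genes for quantitative PCR differed among themselves. Rpl19, with 8904 at hour 2, lay within the range of the other 12 (8401, 8864 and 9883; -0.014), and so did Rpl27, with 6326 against 5519, 6048 and 6556 (0.065). Rps18 did not: it had 7859, against 5715, 6066 and 6526 (0.37). Over all 13 arrays the least variable members were Rps2, Rplp0 and Rpl29, with SDs of 0.037, 0.055 and 0.056 in log2, and the most variable Rpl3l, Rpl14 and Rps7, with 0.31, 0.24 and 0.23.

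Pairs of paralogues could be compared where both members were measured. Rpl7 had 3802 at hour 2, against 3016, 3441 and 3795 in the other 12 (0.14), and Rpl7l1, which acts in ribosome assembly, had 3568, against 3022, 3317 and 3945 (0.092). Rps4x had 6444, against 4524, 5223 and 7028 (0.27), and its relative Rps4l had 2043, against 1452, 1636 and 1860 (0.31). Rpl10 had 13628, against 12012, 12628 and 13262 (0.11), while Rpl10l stood below the mean, as given above. For Rpl22, needed for T cell development in mice, the value was 1684, against 1094, 1154 and 1298 (0.52). Rpl36a had 6954, against 4637, 5102 and 6602 (0.41), and Rpl39l, a testis paralogue of Rpl39, had 362, against 268, 285 and 352 (0.26); the partners of these 3 were only in probe sets of several genes. Of the 6 variant paralogues measured, 3 were highest at hour 2, against 14.1% of all genes. None was high by that rule, against 7.13% of all genes, and 6 genes are too few to compare these shares.

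The shift was present in both subunits, with a median difference of 0.21 and 25 of 38 genes highest at hour 2 in the large subunit, and 0.31 and 20 of 25 in the small one. By brightness the members' medians were 0.27 in the 21 dimmest, 0.29 in the 21 between and 0.17 in the 21 brightest, with 14, 15 and 16 of 21 genes highest at hour 2. All genes in the brightest 10%, where 41 members lie, had a median of -0.028 and 14.3% of them were highest at hour 2. The 10 members with the pyrimidine run at the annotated start had a median of 0.19, and the 41 matched members without it 0.27.

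Probe sets of the same gene gave the same picture. The 63 members had 219 probe sets, up to 14 for Rps12, and 166 of the 219 (75.8%) were highest at hour 2, against 12.0% of all probe sets assigned to 1 gene. Of the 39 members with more than 1 probe set, 37 had all of them on the same side of the mean of the other arrays. The exceptions were Rpl19, with 6 of 7 above, and Rplp1, with 1 of 2. Rps10 had all 3 below, between -0.19 and -0.055. Probe sets of a gene can share probes, so they are not independent measurements.

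Over the 13 arrays the members had a lower median spread than all genes. Of the 63 members 60 were brighter than the median of all genes, and spread was not compared at equal brightness. The median SD in log2 was 0.12 over the members and 0.15 over all genes, and 0.095 and 0.13 without the hour-2 array. The median correlation between pairs of members was 0.51 over 13 arrays and 0.27 over the 12 without hour 2; pairs share their arrays and any effect of each array. The genes outside the rule whose values were most like the members' mean over 13 arrays were Oser1 (r = 0.974), Snapc5 (0.953), Ankra2 (0.949), 1110059E24Rik (0.944) and Pfdn2 (0.939). Over the 12 arrays without hour 2 they were Smndc1 (0.963), Eef1b2 (0.962), Stard3nl (0.961), Nsd2 (0.954) and Pdcd10 (0.948), and none of these 5 is in the first group. These are descriptions of arrays that the genes share, chosen as the highest among all genes tested.

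Other gene lists show how far the hour-2 difference was limited to these genes. Of all genes tested, 14.1% were highest at hour 2 and 7.13% were high. Genes of the mitochondrial ribosome, a separate set of proteins, had a median difference of 0.29. Of the 76 tested, 40 were highest at hour 2 (52.6%) and 28 high (36.8%). Subunits of oxidative phosphorylation had a median of 0.25, with 40 of 70 highest (57.1%) and 24 high (34.3%). Proteasome subunits had a median of 0.21, with 10 of 31 highest (32.3%). The cytosolic ribosomal proteins were 1 of several lists with a median above that of all genes in that array, and the differences between lists were not tested.

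The lists closest to the members in function had smaller medians. Genes of ribosome biogenesis, such as Fbl, Ncl and Nop56 of the nucleolus, had a median of 0.17 at hour 2, with 7 of 44 highest there, and 0.31 at hour 22. Translation factors and other genes with TOP mRNAs had a median of 0.15, with 3 of 18 highest. These counts, 15.9% and 16.7%, were near the 14.1% of all genes highest in that array. High were 5 biogenesis genes (11.4%) and 3 of the TOP list (16.7%), against 7.13% of all genes. Both medians lay above the -0.029 of all genes. Within that list the initiation factor subunits Eif3e, Eif3f and Eif3h had differences of 0.39, 0.37 and 0.44, but Eif3l had -0.074. The initiation factors Eif4b and Eif4a2 had 0.041 and 0.31. The elongation factors Eef1a1, Eef2, Eef1b2 and Eef1d had 0.066, 0.019, 0.21 and 0.10, and the poly(A)-binding protein Pabpc1 -0.23. Fau, which encodes a ubiquitin-like protein fused to a ribosomal protein and lies outside the rule, had 8175 at hour 2, against 7396, 8175 and 8536 in the other 12 (0.022).

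Genes of the mTOR pathway, which controls TOP mRNAs, had a median of -0.028 at hour 2. Of the 19, 2 were highest there (10.5%, against 14.1% of all genes) and none high, against 7.13% of all genes. In the 24 h test 1 of these 19 passed, Deptor, an inhibitor of mTOR, with a fitted fold of 1.43, a peak at ZT11.2 and a limma adjusted p of 0.00422. Mtor had an adjusted p of 0.722, Larp1 0.994 and Eif4ebp1 0.195 in the same limma test. None of the 76 mitochondrial ribosomal protein genes, 44 biogenesis genes, 31 proteasome genes or 70 oxidative phosphorylation genes passed it, although 18 (23.7%), 12 (27.3%), 10 (32.3%) and 13 (18.6%) of them had an unadjusted p under 0.05, against 18.6% of all genes and 3.17% of the cytosolic ribosomal protein genes.

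**Figure D5:**
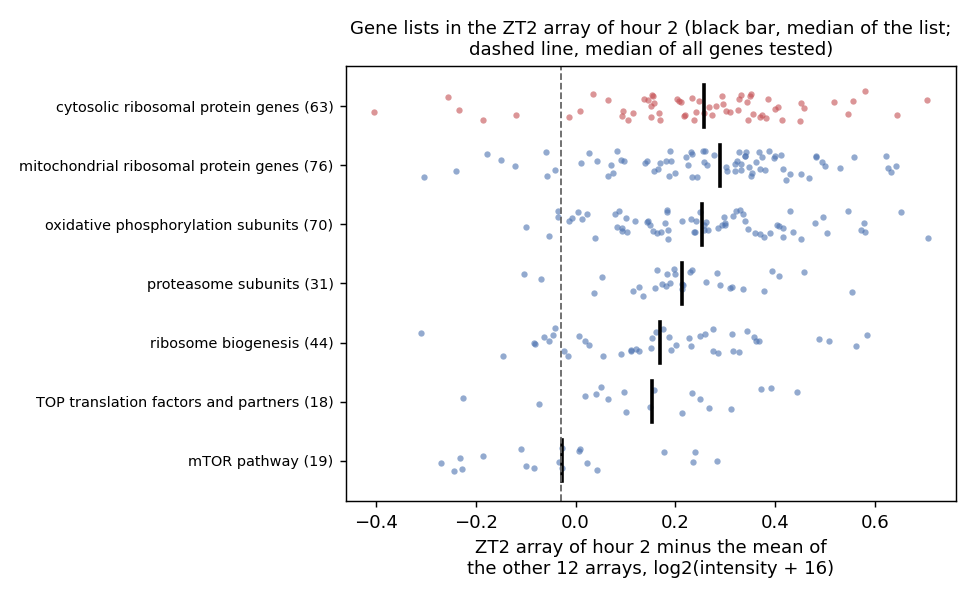
Each point is 1 gene of a list, as its log2(intensity + 16) in the hour-2 array minus the mean of the other 12; the black bar is the median of the list, the dashed line the median of all genes tested (-0.029), and the number of genes tested is in brackets. The medians of the cytosolic ribosomal, mitochondrial ribosomal and oxidative phosphorylation lists lie between 0.25 and 0.29, and that of the mTOR pathway lies at -0.028.

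Beside the shift of the members, the markers of fibroblasts, macrophages, mast cells, adipocytes and hair shaft were below all other arrays in the hour-2 array when summed. Mast cell markers (3 of 3) summed to 4855, against 5543 to 7246, and adipocyte markers (5 of 5) to 14840, against 15170 to 21170. Hair shaft keratins (4 of 4) summed to 967, against 1274 to 21690. Lowest there were 4 of 5 fibroblast, 3 of 3 macrophage and 2 of 3 mast cell markers. So were 3 of 5 adipocyte and 3 of 4 hair shaft markers, against 26.8% of all genes. Dcn, Lep, Cma1 and Krt34 lay within the range of the others. So did Fabp4, which was above their median (5079, against 4718). Endothelial markers (3 of 3) summed to 4852, against 3886 to 4822, above all others by a small margin. Of 1027 olfactory receptor genes on the array, which have little expected expression in skin, 135 passed the filter on dim genes. These 135 had a median difference of -0.41 at hour 2, and 98 of them were lowest there, against 26.8% of all genes. Dim genes were also low in that array. The median was -0.26 over the 1496 genes with mean intensities of 201.8 to 267, and -0.19 over the 1495 genes of 267 to 346.2. The receptors were not compared with other genes of equal brightness. The part of the marker and receptor differences in the values of the ribosomal protein genes was not tested. Only 1 array of hour 2 exists, so the pool of mice, the array and the hour cannot be told apart.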

How the data were processed

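Per the labels' protocols, biotin-labelled sense DNA was made from total RNA with a whole-transcript kit, and RNA of 3 mice was pooled for each of 13 arrays. The authors deposited intensities on a linear scale, 1 per probe set. The submitters' processing notes list PLIER 2.0 and Affymetrix Expression Console 1.1.1, and no source used here gives the normalization or the genome build. The platform annotation assigns 1 gene to 21789 of the 35557 probe sets, and the brightest per gene was kept. Values were transformed to log2(intensity + 16) without further normalization, the dimmest 25% of genes were left out, and limma 3.58.1 in R 4.3.3 was fitted on all 14953 genes with Benjamini-Hochberg adjustment at 0.05, after the fits had been tested on simulated data. Groups follow the time of day in the labels, and the number of arrays limits the precision. Promoters and gene names came from RefSeq tables of GRCm38.p6.

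The members and the other gene lists were chosen with earlier results of these data known. Named genes were members of known role, the 5 farthest above and below in the hour-2 array, the brightest, dimmest, most and least variable 3, those with the smallest p, and the 5 genes outside the rule most like the members' mean. Rpl23 and Rps14 belong to those with the smallest p. Rpl12 is also among the dimmest. Other genes of the lists were named after their values were seen. Alternatives covered the offset, the filter, the normalization, the probe set, a block and left-out arrays.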

Additional observations from a re-analysis of the deposited data

Results flagged for a closer look

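Within the 6 dark and the 7 light arrays, a gap was compared with the whole range of the group for the members named by the rule and for the mean level of all 63 (76 groups of arrays in all), and the ratio exceeded Dixon's critical value for 6 or 7 arrays in 18 of them. The nominal rate is about 1 group in 20. It does not apply to these 18, since the groups share arrays and 10 of the named members were chosen for being farthest above or below in the hour-2 array. Over all 63 members, 9 (14.3%) exceeded the value in the dark, 8 of them with hour 22, against 14.4% of all genes tested. In the light 20 of 63 members (31.8%) exceeded it, 19 of them with hour 2, against 12.5% of all genes, 10.7% with hour 2.

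The mean level of the members exceeded it in both phases. In the dark the hour-22 array, at 11.89, lay above 11.69 to 11.76 in the other 5 (ratio 0.673), and in the light the hour-2 array, at 12.01, lay above 11.74 to 11.81 in the other 6 (ratio 0.749).

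In the light the outlying array was hour 2 for the 12 named genes past the critical value. Of these, Rpl14, Rpl8, Rps3a1, Rps7, Rps14 and Rps23rg1 had been named for their value in that array. Rpl23 and Rps14 were named for their p in day 2 minus day 1, which includes hour 2. The hour-2 array itself was singled out with earlier results of these data known. All hour-2 ratios and counts in this section, also that of the mean level, are therefore descriptions with no test. Hour 2 was high for Rpl14 (ratio 0.764), Rpl22 (0.765), Rpl23 (0.615), Rpl5 (0.728), Rpl8 (0.764), Rps14 (0.622), Rps18 (0.584), Rps3a1 (0.587), Rps4l (0.766), Rps7 (0.616) and Rpsa (0.577), and low for Rps23rg1 (0.646). In the dark the outlying array was hour 22, and it was high for Rpl26 (0.71), Rps20 (0.737), Rps4x (0.641) and Rps7 (0.885). Rps7 had 12.75 in log2 at hour 2, against 12.15 to 12.38 in the other light arrays, and 12.68 at hour 22, against 12.05 to 12.12 in the other dark arrays.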

How the results depend on the processing

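The count of members called stayed 0 in all 3 tests under every alternative run: offsets of 1 and 64, no filter and the dimmest 50% left out, quantile and cyclic loess normalization, arrays shifted to the same median, the mean over probe sets, each array left out, and hours 2 and 46 both left out. The same held with collection day as a replicate block in the 24 h and the dark against light tests, and with no replicate block for day 2 minus day 1; with the block, 212 of all genes passed the 24 h test, against 318 without it. Of all genes, 128 to 422 passed it when 1 array was left out and 212 to 429 otherwise, and 1 to 16 passed dark against light. Adjusted p ranged over 0.0563 to 0.238 for Rpl12 and 0.0866 to 0.241 for Rps27l. The fitted difference between peak and trough of the members' mean level was 0.038 to 0.12 with 1 array left out, and 0.040 without hours 2 and 46. The members' median of dark minus light, -0.049, was -0.013 under quantile normalization, -0.020 under loess, -0.010 under the median shift and -0.012 without hours 2 and 46, and -0.079 (without hour 22) to -0.018 (without hour 2) with 1 array left out. The median of day 2 minus day 1 was -0.086 to -0.035 with 1 array left out and -0.0027 without both. The members' median in the hour-2 array was 0.25 to 0.27 with 1 of the other arrays left out, 0.21 with arrays shifted to the same median, 0.26 against the other ZT2 arrays alone and 0.25 as the residual from a 24 h curve; the count of highest members was 36 to 51. With arrays shifted to the same median 14 members were high, against 23, and with 1 array left out 21 to 25. Lowest members numbered 2 under quantile normalization and under the median shift, 0 under loess and 1 to 4 with 1 array left out, 4 without hour 22. The cause of these changes was not tested. Counts of highest and high members and the fits without hours 2 and 46 were chosen after seeing the data. Leaving out hour 2 gives no value for its own comparison. The median over all genes in that array moved between -0.11 without the filter and 0.022 with the dimmest 50% left out.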

Other observations

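Probe sets shared by several genes were left out of the report, and 239 of them carry at least 1 symbol of the rule. Of these 193 (80.8%) had their highest value in the hour-2 array, with a median difference of 0.21 from the other 12 arrays, and 0 had their lowest value there. They include the symbols Rpl3, Rpl11, Rpl32, Rps16, Rps24 and Rps26, which have no probe set of their own.

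Subunits of oxidative phosphorylation had a median of -0.12 for dark minus light, with 69 of 70 genes below 0, against a median of -0.049 and 53 of 63 for the cytosolic ribosomal protein genes, whose median was -0.010 to -0.020 under the other normalizations. Over all genes tested the median was -0.023, with 59.8% below 0. None of the genes of either list passed the limma test, which 3 of all 14953 genes passed. Genes of ribosome biogenesis had a median of 0.0045 with 21 of 44 below 0.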
